A study of Bos taurus with 16 samples.

Results

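MicroRNAs of the bovine corpus luteum were compared between day 23 and day 14 of pregnancy, which are the last and the first of the 4 days sampled. The comparison uses 8 of the 16 samples, chosen by the day given in their labels, and covers all 204 miRNA probes of the deposited table. The day 23 group holds 4 corpora lutea and the day 14 group holds 4. Both groups came from cattle that mated naturally at oestrus, were inseminated some hours afterwards, and were kept in the study only if they were found pregnant. No other treatment is named in the labels, and neither breed nor age is given. The samples of days 17 and 20 enter the fit and are shown only beside the 2 days compared. The NanoString assay counts RNA molecules with colour-coded probes and no amplification, and it was performed in 2 runs. In each day group replicates 1 and 2 belonged to run 1 and replicates 3 and 4 to run 2, so each run holds both days.

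The corpus luteum is the gland that the ruptured ovarian follicle becomes, and its progesterone keeps the uterus able to carry a pregnancy. In cattle, day 14 lies before and day 23 lies after the time when a non-pregnant animal's gland would regress, and interferon tau from the embryo prevents that regression. A miRNA is a short RNA that pairs through its seed with sites in messenger RNAs and lowers their translation and stability, and miRNAs cut from one primary transcript can still reach different levels. In a gland profiled whole, fewer cells of a type and less of an RNA per cell cannot be told apart.

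The normalized counts summed to 253542 and 331164 in the run 1 samples and 407448 and 536516 in the run 2 samples of day 23, against 175197 and 213338 in run 1 and 403912 and 523985 in run 2 on day 14. The groups overlapped in total, and the exact two-sided permutation test within runs gave p = 0.167, where its 36 arrangements can give no p below 0.0556. Probe names are those of human miRNAs, of which 155 match a bovine miRNA gene of the same name in the RefSeq gene table, 11 match by number alone and 38 match none. The median of those 38 was 150, 130, 60.4 and 88.8 normalized counts in day 23 replicates 1 to 4, against 258, 184, 49.9 and 42.2 in day 14 replicates 1 to 4. These probes were lower on day 23 in run 1 and higher on day 23 in run 2, and how far they measure background was not tested. The panel holds no miRNA known to define luteal cells, so the tissue label was set only against markers of other cells, given further on.

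On day 23 the miRNAs with the largest upward differences were miR-181a-5p, the joint miR-365a/b-3p probe (which cannot tell miR-365a-3p from miR-365b-3p), miR-331-3p, miR-328-3p, the probe shared by miR-193a-5p and miR-193b-5p, and miR-574-3p. They lay between 2.01-fold and 2.40-fold above day 14, and miR-432-5p fell. Only miR-432-5p passed an adjusted p under 0.05, which is 0.49% of the 204 probes tested, and no upward difference passed (0%). At an unadjusted p under 0.05 the limma fit had 27 probes higher on day 23 (13.2%) and 16 lower (7.84%), 43 together (21.1%). All 27 higher probes had a difference above 0 in each run taken alone, as did 54 of all 204 probes (26.5%). This follows largely from the choice by small p, since the fit averages the differences of the 2 runs. Of the 27, 14 belonged to the 51 probes with the highest level. Without day 23 replicate 4 the 27 became 13, without day 23 replicate 2 they became 16, and without day 14 replicate 1 they became 17. The 16 lower probes became 10 without day 23 replicate 4. The balance depended on the scaling: with each sample divided by its total, 9 probes were higher and 46 lower at this threshold, and without the run term 6 were higher and 3 lower. Differences are given as log2 of the normalized count plus 1, day 23 minus day 14 with the run held, and their median over all probes was 0.00.

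Agreement between the runs was described by position: a probe was separated when both day 23 samples of a run lay above, or both below, both day 14 samples of the same run, and this held in each run. By this description 15 probes were higher on day 23 (7.35%) and 16 were lower (7.84%). Run 1 alone had 79 probes separated upward (38.7%) and 55 downward (27%), and run 2 alone had 47 upward (23%) and 64 downward (31.4%). The looser condition of a difference of the same sign in both runs held upward for 54 probes (26.5%) and downward for 48 (23.5%). Whether any of these joint counts exceeds what unrelated runs would give was not tested. The adjusted p of the 15 higher probes ran from 0.081 to 0.404 in limma. An unadjusted p under 0.05 was found for 13 of the 15, and upward for 27 of all 204 probes (13.2%). The limma p and the separation use the same values, so the 13 are not independent of the choice. Across probes, the differences of the runs had a Pearson r of 0.07 over 204 probes, which share their samples within each run. The limma test of whether the effect of day differed between runs called no probe, with 39 at an unadjusted p under 0.05 (19.1%).

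**Figure D1:**
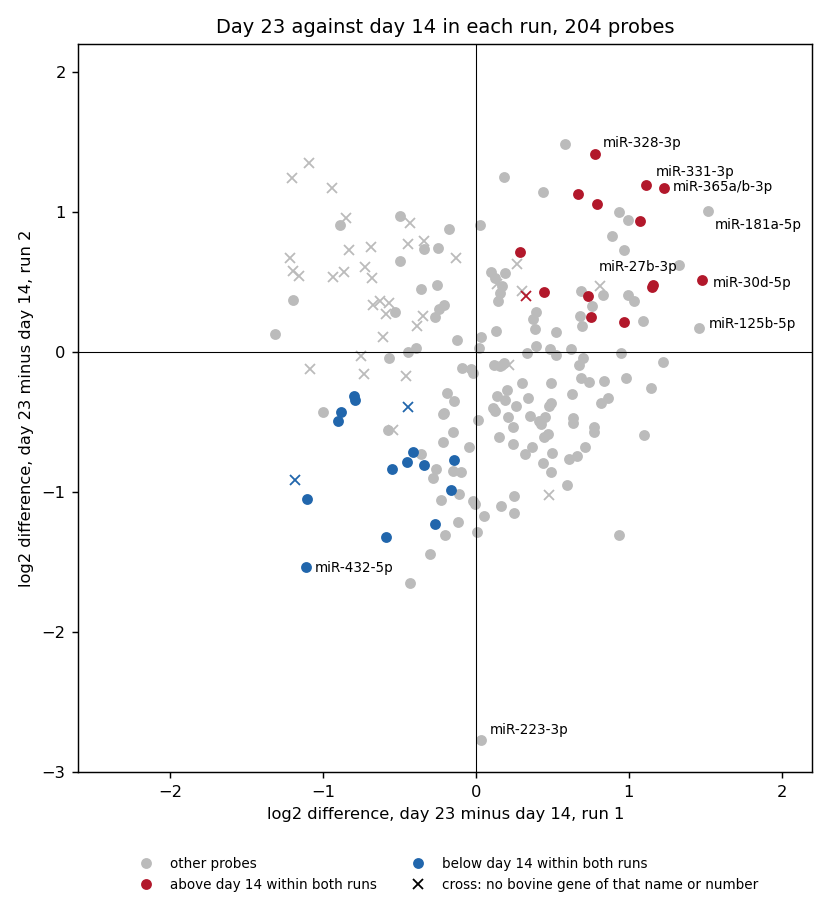
Log2 difference in normalized count, day 23 minus day 14, of each of the 204 probes in run 1 (horizontal axis) and in run 2 (vertical axis). Red points are the 15 probes whose day 23 samples lay above the day 14 samples within both runs, blue points are the 16 that lay below, grey points are all others, and crosses are probes with no bovine gene of that name or number. All 15 red points lie between 0 and 1.5 on both axes, and miR-223-3p differed by 0.03 in run 1 and -2.77 in run 2.

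The joint miR-365a/b-3p probe had nearly equal differences in the 2 runs. In mammals the miR-365 genes sit beside the miR-193 genes, and the pair is studied in mouse brown fat cells. Its normalized counts were 2411, 3799, 2453 and 7348 on day 23, against 977, 1700, 1477 and 2401 on day 14. Every day 23 sample was above every day 14 sample, by a narrow margin between the lowest of one group and the highest of the other. The difference was 1.20 (SE 0.33, adjusted p = 0.081 by limma), made up of 1.23 in run 1 and 1.17 in run 2. Day 23 replicate 4 was the highest sample, and the difference without it was 0.96.

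miR-331-3p was the only other probe with all day 23 samples above all day 14 samples, so that 2 of 204 probes (0.98%) had this pattern. In human cells this miRNA is reported to repress the receptor gene ERBB2. It had 866, 1424, 838 and 2383 normalized counts on day 23, against 455, 576, 467 and 820 on day 14. The day 23 samples spread more widely than the day 14 samples, and the highest day 14 sample (820) lay just under the lowest of day 23 (838). The difference was 1.15 (SE 0.35, adjusted p = 0.0993 by limma), with 1.12 in run 1 and 1.19 in run 2. It was 0.87 without day 23 replicate 4.

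miR-30d-5p and miR-27b-3p were higher on day 23 within both runs, but by more in run 1. miR-30d belongs to the miR-30 family, which is abundant in differentiated tissues. It had 260 and 377 in run 1 and 491 and 647 in run 2 on day 23, against 95.6 and 131 in run 1 and 342 and 455 in run 2 on day 14. The run 1 samples of day 23 overlapped the run 2 samples of day 14, so the separation exists only once the run is held. The difference was 0.99 (SE 0.30, adjusted p = 0.0993 by limma), with 1.48 in run 1 and 0.51 in run 2. miR-27b-3p, which human and mouse work links to genes of lipid metabolism such as PPARG, had 2260 and 2147 in run 1 and 3474 and 5046 in run 2 on day 23, against 862 and 1133 in run 1 and 2673 and 3378 in run 2 on day 14. Here too the groups overlapped across runs and not within them, and the difference was 0.82 (SE 0.24, adjusted p = 0.0993 by limma).

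These 4 probes, miR-365a/b-3p, miR-331-3p, miR-30d-5p and miR-27b-3p, were the ones of the 15 that stayed separated upward under each of the 3 other scalings tried. Dividing each sample by its total shifted the median of all probes by -0.30, so differences under that scaling are read against that value. It left 9 probes separated upward, of which 4 were among the 15, and 37 separated downward. Dividing by the sample median gave 27 upward, with all 15 among them, and quantile normalization gave 19, with 11 among them. Under the sample-median scaling 5 upward differences passed the limma test, at an adjusted p of 0.0343 each: miR-181a-5p (1.34), the miR-365 probe (1.28), miR-30d-5p (1.07), miR-27b-3p (0.89) and miR-497-5p (0.78).

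**Figure D2:**
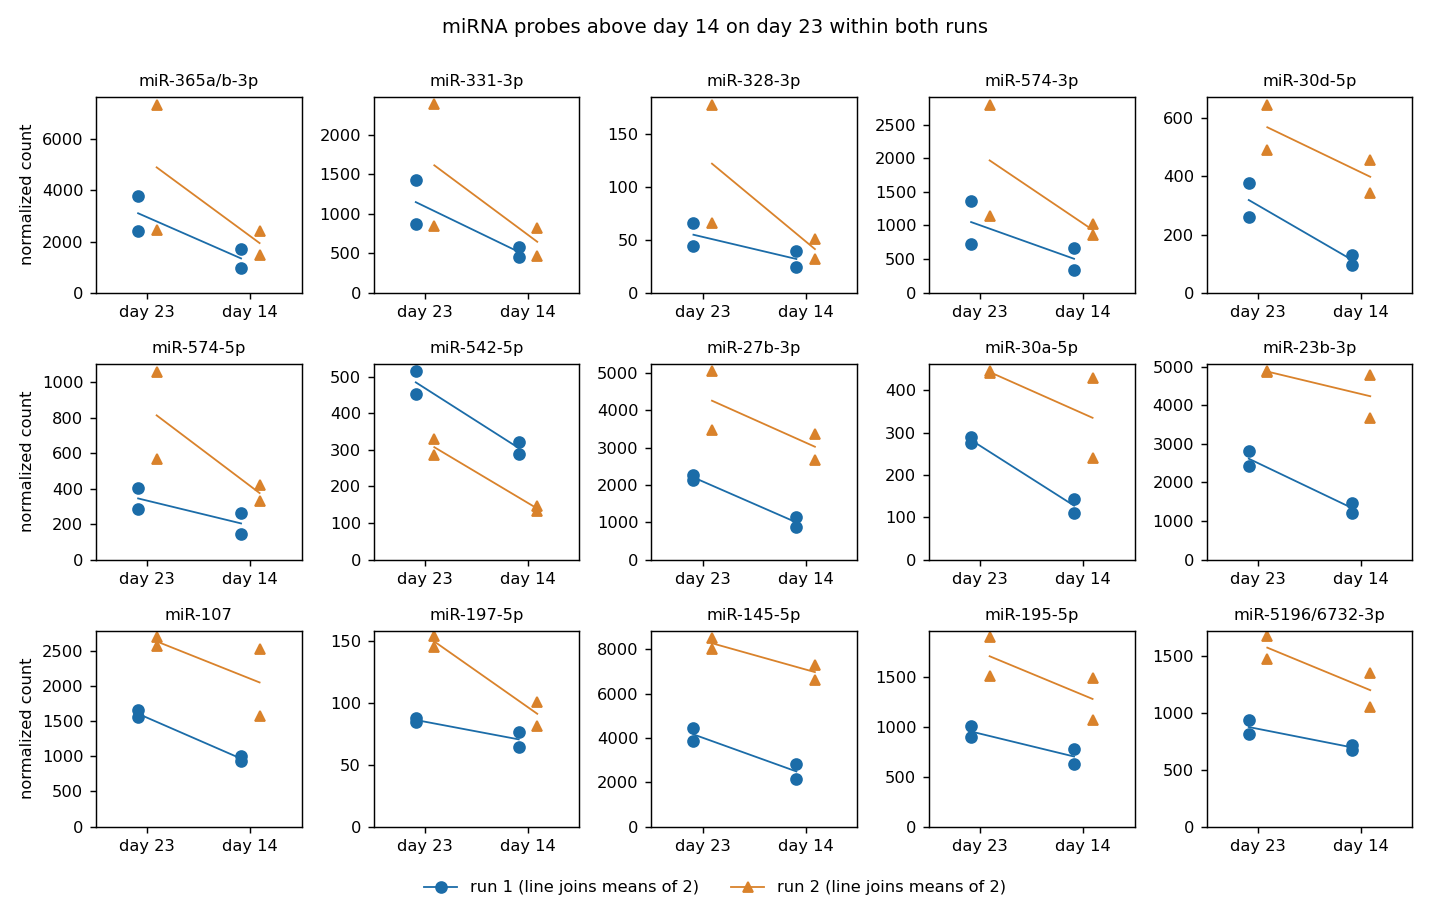
Normalized counts in each sample of the 15 probes separated upward, with the 4 day 23 samples to the left of the 4 day 14 samples in each panel. Marker shape and colour show the run, and each line joins the means of the 2 samples per day of a run. miR-365a/b-3p and miR-331-3p are the panels in which no day 14 sample reaches the lowest day 23 sample.

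The remaining separated probes included both arms of miR-574, a miRNA that in humans comes from an intron of FAM114A1. miR-574-3p had 731 and 1370 in run 1 and 1142 and 2794 in run 2 on day 23, against 337 and 671 in run 1 and 852 and 1018 in run 2 on day 14. Its lowest day 23 sample, of run 1, was below both run 2 samples of day 14. miR-574-3p differed by 1.01 (SE 0.36, adjusted p = 0.124) and miR-574-5p by 0.93 (SE 0.35, adjusted p = 0.143 by limma). miR-328-3p, which human work links to the drug transporter gene ABCG2, had 43.7, 65.9, 66.3 and 178 on day 23, against 23.8, 39.8, 32.0 and 50.4 on day 14. Its mean count was the lowest of the 15, it lay under the medians of the probes without a bovine gene in all run 1 samples, and its difference of 1.10 (SE 0.36, adjusted p = 0.124 by limma) was 0.78 in run 1 and 1.41 in run 2.

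miR-542-5p had 453, 517, 329 and 285 on day 23, against 289, 322, 147 and 132 on day 14. Its counts were higher in run 1 than in run 2 on both days, and the difference was 0.90 (SE 0.32, adjusted p = 0.124 by limma). miR-30a-5p differed by 0.81, miR-23b-3p by 0.59, miR-107 by 0.57 and both miR-145-5p and miR-197-5p by 0.50. In all run 1 samples miR-197-5p lay under the medians of the probes without a bovine gene. miR-107 is encoded in an intron of PANK1, a gene of coenzyme A synthesis, and miR-145 is best known from smooth muscle. miR-195-5p differed by 0.44, and the probe shared by miR-5196-3p and miR-6732-3p, the only one of the 15 with no bovine gene, by 0.36.

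The upward differences were carried unevenly by the samples. Day 23 replicate 4 was the highest of the 8 samples for 17 of the 20 upward probes with the smallest p and for 50 of all 204 probes. Day 14 replicate 1, which had the lowest total, was the lowest of the 8 for 19 of those 20 and for 89 of all probes. Among the 15 separated probes the counts were 11 and 14. Differences across all 204 probes also moved with level: in run 1 a probe's mean level and its difference had a Spearman correlation of 0.42, and in run 2 of -0.10. The part of the sample totals in these differences was not tested beyond the scalings given above.

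miR-181a-5p, which sets the sensitivity of T cell receptor signalling in mouse thymocytes, had the largest upward difference of all probes. It had 8856, 15765, 9389 and 25404 normalized counts on day 23, against 3077, 5544, 5491 and 10745 on day 14. The groups were apart in run 1, and in run 2 the day 14 replicate 4 value lay above the day 23 replicate 3 value. The difference was 1.26 (SE 0.33, adjusted p = 0.081 by limma), with 1.52 in run 1 and 1.01 in run 2. miR-181c-5p had 167, 215, 137 and 396 on day 23, against 87.8, 102, 97.5 and 150 on day 14, a difference of 0.97. The third family probe, shared by miR-181b-5p and miR-181d-5p, differed by 0.22, and by -0.084 when each sample was divided by its total. The family median of 0.97 over 3 probes is set against 0.00 over all probes, and none of the 3 passed the test.

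Both arms of miR-423 differed by similar amounts, 0.97 for miR-423-5p and 0.86 for miR-423-3p. miR-423-5p had 1107, 1734, 1501 and 4213 on day 23, against 585, 892, 918 and 1730 on day 14. The groups again crossed in run 2, where day 14 replicate 4 was above day 23 replicate 3. Over the 13 hairpins with both arms measured, 6 had both arms higher on day 23, 1 had both lower and 6 had arms of opposite sign. The widest split was miR-542, with 0.90 for its 5p arm and -0.43 for its 3p arm.

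miRNAs with neighbouring bovine genes did not all differ to the same extent. Genes were taken as neighbours where they lay within 10 kb of each other in the RefSeq table. In the miR-23b, miR-27b and miR-24 group the differences were 0.59, 0.82 and 0.25. miR-24-3p also has a gene beside that of miR-23a, so its value is not that of this group alone. miR-23a-3p, the paralogue of miR-23b-3p, differed by 0.32 overall and by -0.20 in run 2. miR-365 stood at 1.20 beside 1.04 for the probe shared by miR-193a-5p and miR-193b-5p, which had 304, 705, 658 and 1903 on day 23, against 277, 344, 329 and 484 on day 14. In that probe day 23 replicate 1 lay below day 14 replicates 2, 3 and 4, and the other day 23 samples lay above all of day 14. miR-30d-5p stood at 0.99 beside 0.25 for miR-30b-5p, miR-497-5p at 0.70 beside 0.44 for miR-195-5p, and miR-145-5p at 0.50 beside -0.50 for miR-143-3p.

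**Figure D3:**
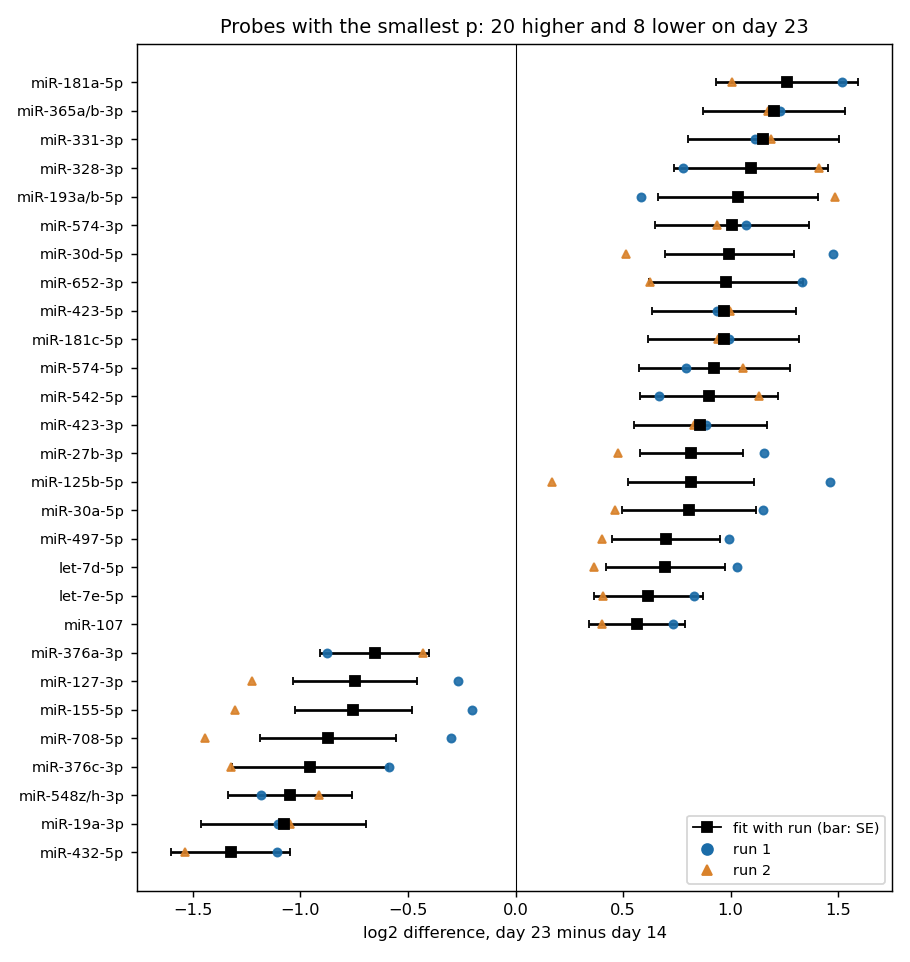
Log2 difference, day 23 minus day 14, of the 20 higher and 8 lower probes with the smallest p, from the fit to all 16 samples with the run held, with bars of 1 SE, and the same difference in run 1 and in run 2 alone. miR-432-5p at -1.32 is the one difference that passed the adjusted threshold, and miR-181a-5p at 1.26 is the highest.

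The let-7 family regulates developmental timing in worms and supplied a large part of the signal, as given below. It had 7 of 9 probes higher and 2 lower on day 23, with none called and a median difference of 0.34. let-7d-5p had 7491, 11460, 12469 and 23965 on day 23, against 3772, 5445, 10177 and 17750 on day 14, a difference of 0.70 (SE 0.28, adjusted p = 0.15 by limma). let-7b-5p differed by 0.56, let-7e-5p by 0.62, let-7a-5p by 0.44 and let-7f-5p by -0.02. The family median was 0.62 in run 1 and 0.14 in run 2, and it was 0.19 without day 14 replicate 1 and 0.53 without day 14 replicate 4. It was 0.032 when samples were divided by their totals and 0 after quantile normalization. Of the totals, let-7 made up 50.7% to 59.4% on day 23 and 44.7% to 52.2% on day 14. miR-125b-5p, the mammalian relative of the worm timing gene lin-4, differed by 0.82, with 1.46 in run 1 and 0.17 in run 2. Its list held the miR-99/100 and miR-125 probes and also miR-10b-5p (-0.13), which is counted among the endothelial probes too. Of its 6 probes 4 were higher and 2, miR-10b-5p and miR-100-5p, were lower, with a median of 0.14. That median was -0.11 without day 14 replicate 1 and also below 0 without day 23 replicate 2. It was -0.16 after division by the total and -0.013 after quantile normalization. A median without miR-10b-5p was not taken.

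The 5 miR-30 probes of the 5p arm were all higher on day 23 in the fit, and the median was 0.29. Of the 5, 2 were higher in both runs, as were 54 of all 204 probes (26.5%). miR-30b-5p (-0.020) and miR-30c-5p (-0.09) were below 0 in run 2, and miR-30e-5p (-0.20) in run 1. Division by the total put 2 of the 5 above and 3 below 0, with a median of -0.011. The 4 probes of the miR-23/24/27 clusters were all higher in the fit, 3 of them in both runs, with a median of 0.45. That median was 0.29 without day 14 replicate 1, and 3 of the 4 were higher after division by the total. For miR-365 and miR-193 all 3 probes were higher under every scaling, with a median of 1.04. The miR-15/16 group, which includes miR-195-5p and miR-497-5p, shares a seed and is known to restrain the cell cycle, had 3 higher and 2 lower and a median of 0.44, with 0.47 for miR-15b-5p and -0.33 for miR-16-5p, a gene of which neighbours that of miR-15b. The miR-29 family, known to repress collagen genes, had 2 of 3 higher at a median of 0.25, but its run medians were 0.87 and -0.34, and the median was -0.059 without day 23 replicate 2 and -0.042 after division by the total. The miR-378 family, linked to energy metabolism in mice, had a median of 0.081, with 0.47 in run 1 and -0.47 in run 2. It was -0.22 after division by the total, -0.15 without day 14 replicate 2, and also below 0 without day 14 replicate 1. No member of these lists was called.

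**Figure D4:**
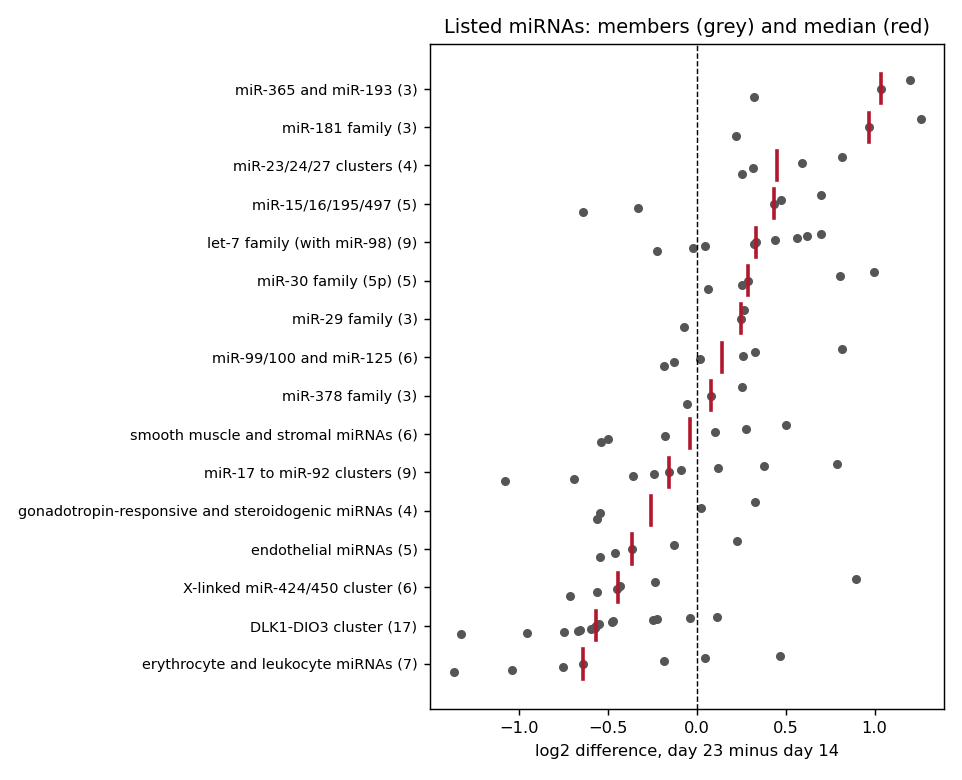
Log2 difference, day 23 minus day 14, of every measured member of each list of miRNAs (points) with the list's median (bar), and a dashed line at the median of all 204 probes. The miR-365/193 and miR-181 lists lie highest, with medians of 1.04 and 0.97, and the DLK1-DIO3 and blood cell lists lie lowest, with medians of -0.56 and -0.64.

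miR-432-5p fell on day 23. It is encoded with miR-127 in the imprinted DLK1-DIO3 region, antisense to the retrotransposon-derived gene RTL1. It had 54.0, 76.8, 119 and 69.8 normalized counts on day 23, against 157, 126, 243 and 291 on day 14. All 4 day 23 samples lay below all 4 day 14 samples, a pattern that 2 of 204 probes (0.98%) had, with -1.11 in run 1 and -1.54 in run 2. The adjusted p was 0.0204 by limma for a log2 difference of -1.32 (SE 0.28). In all run 1 samples miR-432-5p lay under the medians of the probes without a bovine gene. The median difference of those probes was -0.62 in run 1 and 0.48 in run 2. The call was lost when replicate 1 or replicate 4 of day 23, or replicate 1 or replicate 3 of day 14, was left out. It was also lost without the run term, in run 2 alone and in a fit to the 8 samples only.

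Of the 17 DLK1-DIO3 probes measured, 16 were lower on day 23 and 1 was higher, with a median of -0.56 against 0.00 over all probes. 1 of them passed the test and 8 were among the 16 probes separated downward. miR-127-3p had 345, 351, 506 and 481 on day 23, against 363, 483, 1117 and 1195 on day 14, a difference of -0.75 (SE 0.29, adjusted p = 0.143 by limma). The gap between the days was wider in run 2 (-1.23) than in run 1 (-0.27), where the day 23 and day 14 samples lay close to each other. miR-376c-3p differed by -0.95, miR-379-5p by -0.57 and miR-409-3p by -0.57. In all run 1 samples miR-376c-3p lay under the medians of the probes without a bovine gene. Run 1 gave a list median of -0.27 and run 2 of -0.81. miR-376a-3p, the other probe with all day 23 samples below all day 14 samples, had 66.3, 46.7, 84.7 and 78.6 on day 23, against 107, 99.3, 136 and 89.7 on day 14. Its difference was -0.66 (SE 0.25, adjusted p = 0.143 by limma), and it lay under the medians of the probes without a bovine gene in all run 1 samples.

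Of the other downward probes with small p, the joint miR-548z and miR-548h-3p probe has no bovine gene. It had 208, 203, 20.3 and 31.9 on day 23, against 583, 374, 40.7 and 58.6 on day 14, a difference of -1.05 (SE 0.29, adjusted p = 0.081 by limma). The days were apart within each run, and both days were far higher in run 1 than in run 2. miR-155-5p, which is induced in activated immune cells, had 355, 274, 438 and 370 on day 23, against 353, 365, 1131 and 877 on day 14. The groups overlapped in run 1 and were apart in run 2, and the difference was -0.75 (SE 0.27, adjusted p = 0.124 by limma). miR-708-5p differed by -0.87, with -0.30 in run 1 and -1.44 in run 2. In all run 1 samples it lay under the medians of the probes without a bovine gene.

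The X-linked miR-424/450 cluster, which also holds miR-542, had 5 of 6 probes lower and a median of -0.44, while its miR-542-5p was higher as described. miR-503-5p differed by -0.56 and miR-424-5p by -0.45, and both had their highest value in day 14 replicate 4. Without that sample the list median was -0.14. Of the miR-17 to miR-92 clusters, known for promoting proliferation, 6 of 9 probes were lower and 3 higher. miR-19a-3p had 34.7, 23.4, 74.2 and 20.3 on day 23, against 57.8, 67.7, 79.0 and 84.8 on day 14, a difference of -1.08 (SE 0.38, adjusted p = 0.124 by limma). It lay below day 14 within both runs, and under the medians of the probes without a bovine gene in all run 1 samples. miR-19b-3p, at -0.69, also lay below day 14 within both runs. miR-92a-3p differed by 0.79, and its genes lie both in the miR-19a cluster and in another that holds a miR-19b gene.

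Markers of other cell types took different shares of the sample totals on the 2 days. The 5 endothelial probes made up 2.75% to 4.86% of the total on day 23 and 4.98% to 6.54% on day 14, with no overlap. A lower share on day 23 was common among all probes. Division by the total put 151 of them below 0 and 53 above, with a median of -0.30. In normalized counts 4 of the 5 endothelial probes were lower on day 23 and their median difference was -0.36. That median was -0.0038 in run 1 and -0.68 in run 2. The most abundant, miR-126-3p, had 7579, 7318, 16446 and 12438 on day 23, against 7633, 8826, 20517 and 29140 on day 14, a difference of -0.46 (SE 0.31, adjusted p = 0.419 by limma). The 7 blood cell probes, of red cells and leukocytes, made up 0.418% to 0.521% on day 23 and 0.632% to 1.20% on day 14. Of these 5 were lower and 2 higher, with a median of -0.64, which was 0.0081 in run 1 and -1.30 in run 2, and -0.42 without either replicate 3 of day 23 or replicate 3 of day 14. The myeloid miR-223-3p had 36.8, 37.1, 47.9 and 34.9 on day 23, against 42.2, 30.7, 104 and 776 on day 14, and the red cell miR-451a had 132, 288, 348 and 367 on day 23, against 206, 336, 675 and 1877 on day 14. Both were far above the rest in day 14 replicate 4.

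Smooth muscle and stromal probes made up 3.35% to 4.73% on day 23 and 3.69% to 7.20% on day 14, and their 6 members were split at 3 higher and 3 lower with a median of -0.038. The sign of that median depended on day 14 replicate 3, without which it was 0.31, on day 23 replicate 4, without which it was also above 0, and on the scaling, being 0.039 after division by the sample median. Of the 4 gonadotropin-responsive and steroidogenic probes, 2 were higher and 2 lower. miR-21-5p, which luteinizing hormone induces in mouse granulosa cells, differed by -0.56, and by 0.05 in run 1 against -1.17 in run 2. The single epithelial probe, miR-141-3p, had 45.7, 63.1, 58.4 and 87.3 on day 23, against 53.9, 42.8, 49.3 and 56.9 on day 14. None of these markers was called. No probe of the panel was at 0 in any sample, and the lowest value was 12.0, so a value above 0 does not show that a cell type was present. miR-141-3p lay under the medians of the probes without a bovine gene in every sample but day 14 replicate 4. miR-223-3p lay under them in all day 23 samples and in the run 1 samples of day 14. The part of cell composition in the upward differences was not tested.

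Across all 4 days, 11 of the 15 probes separated upward had mean counts in the order day 14, day 17, day 20, day 23, as did 26 of all 204 probes. The order was not independent of the choice, since day 14 and day 23 set the ends. miR-331-3p averaged 580 ± 169 on day 14, 680 ± 282 on day 17, 797 ± 283 on day 20 and 1378 ± 722 on day 23 (SD, n = 4 each). miR-30d-5p averaged 256 ± 172, 306 ± 171, 360 ± 158 and 444 ± 165 over the same days. For both, neighbouring days differed by less than the SD of the later day. The miR-365 probe stayed level between days 17 and 20, at 2115 ± 1087 and 2099 ± 980, and its day 23 mean of 4003 ± 2322 included replicate 4 at 7348.

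**Figure D5:**
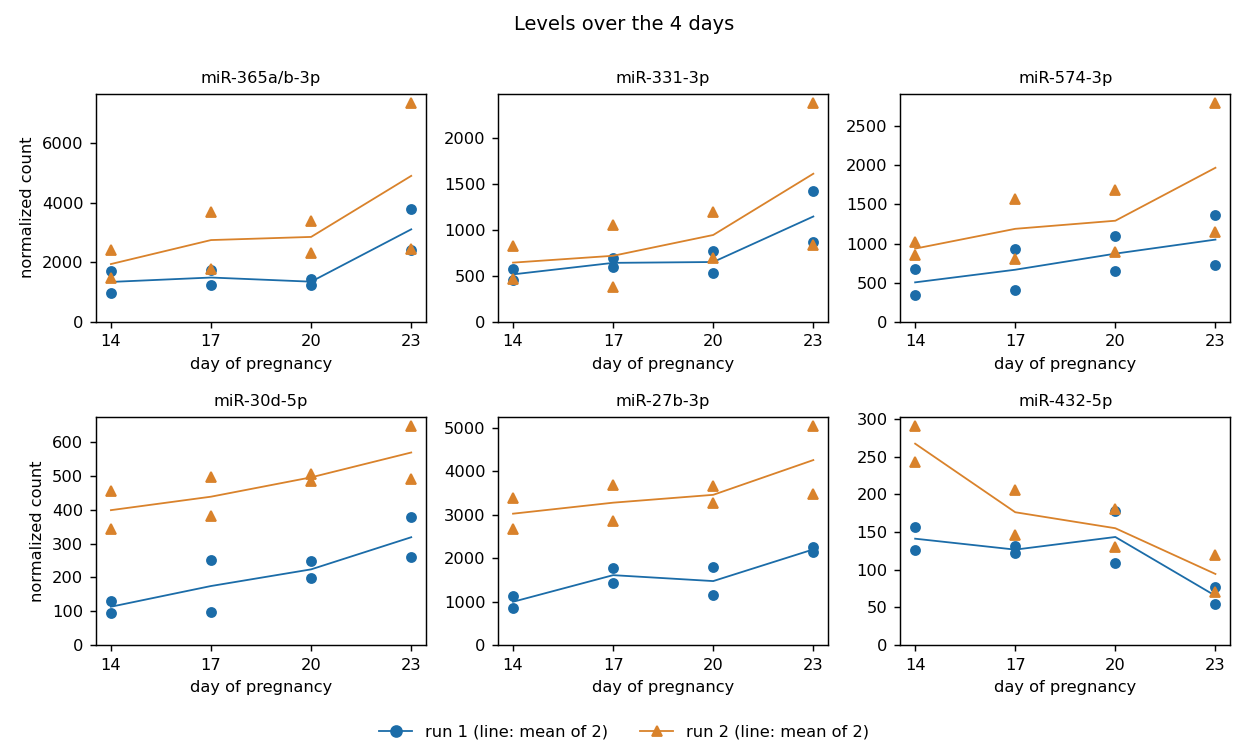
Normalized counts of each sample at days 14, 17, 20 and 23 for 6 named miRNAs, with the run shown by the marker and a line through the means of the 2 samples of each day in a run. The largest step of the miR-365 probe lies between day 20 and day 23, and miR-432-5p is lowest on day 23.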

How the data were processed

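MicroRNAs of 16 bovine corpora lutea were measured by NanoString, and 8 samples, of days 23 and 14, form this comparison. The deposited values are a signal that the authors called normalized counts. Counting software, probe panel, background correction and normalization were not given in the sources used here. A commercial kit that keeps miRNA with total RNA was used for isolation, per the labels' protocols. The group sizes are given per pregnant animals in the design text, and p-values measure the spread between these samples. All 16 sample columns were used, and 0 were left unused.

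Values were taken as log2(value + 1), with no scaling. All 204 probes passed a minimum of 20 in at least 4 samples. limma 3.58.1 in R 4.3.3 (lmFit, eBayes with a variance trend) used the 16 samples of all days, a factor for day and a term for run, leaving 11 residual degrees of freedom. P-values are two-sided and adjusted by the Benjamini-Hochberg method over 204 probes, with calls at an adjusted p under 0.05. The procedure was tested on simulated data. Totals and sample medians were compared by exact permutation within runs, also in R 4.3.3. The depth in raw counts is unknown, so no counting intervals are given. Bovine genes were matched by name or number in the RefSeq gene table, and no coordinates or sequences are printed.

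Named miRNAs were all called probes, the 20 higher and 8 lower with the smallest p, the 10 higher and 5 lower of the separated probes with the largest difference, the most abundant members of each list, and the 4 most abundant with an upward difference. Other miRNAs named for their neighbours, arms or markers were chosen after their values were seen. The members, the 17 lists and the tests were chosen with earlier results of these data known. Same-numbered samples of days 23 and 14 correlated across probes at 0.56 to 0.74 once day means were removed. The correlations were -0.34 to 0.21 once the run was also removed. Samples with different numbers were not compared in this way, so whether the numbers share more than the run was not tested. Alternatives covered the pseudocount, the filter, the scaling, the run term, the samples fitted and the probe set.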

Additional observations from a re-analysis of the deposited data

Results flagged for a closer look

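Among 88 groups of 4 samples examined, made up of the named probes and summary measures on days 23 and 14, 3 had one sample set apart, where chance gives about 1 in 20 groups. The gap of that sample to its nearest neighbour is given as a share of the whole range of its group. For miR-328-3p on day 23 the highest sample, replicate 4 at 178 normalized counts, lay above the next at 66.3 by 0.8311 of the range. For miR-652-3p on day 14 replicate 4, at 725, lay above the next at 185 by 0.868 of the range. That miRNA had 241, 358, 413 and 775 on day 23, against 103, 130, 185 and 725 on day 14, and its difference was 0.98 (SE 0.36, adjusted p = 0.124 by limma). For the probe shared by miR-181b-5p and miR-181d-5p, day 14 replicate 4, at 699, lay above the next at 266 by 0.8424 of the range.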

How the results depend on the processing

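The number of probes called lower was 1 in the fit reported and also with other pseudocounts, without the filter, with division by the sample total or the sample median, without the variance trend, in the fit with a replicate block in place of the run term and over probes with a bovine gene. It was 2 after quantile normalization, 0 without the run term, 0 with only the day 23 and day 14 samples, 15 in run 1 alone and 0 in run 2 alone. Higher calls numbered 0, but 5 after division by the sample median and 25 in run 1 alone. Of the run 1 calls, 18 of the 25 higher and 5 of the 15 lower had the same sign in run 2. No bovine gene matched 10 of those 15 lower calls, against 38 of all 204 probes. With the replicate block the adjusted p of miR-432-5p was 0.0263, and the block changed no other call. Leaving out one sample gave 0 to 8 higher calls (8 without day 23 replicate 3, 2 without day 14 replicate 4) and 0 to 2 lower calls. It also gave 15 to 39 probes separated upward (39 without day 14 replicate 4, 35 without day 23 replicate 3) and 19 to 30 downward, by construction more, since fewer samples must be apart. This last alternative was chosen after seeing the data. Separated probes numbered 27 upward after division by the sample median, 9 upward and 37 downward after division by the total, and 10 downward among probes with a mean of at least 100.

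List medians moved as follows, where the miR-99/100 and miR-125 list includes miR-10b-5p. After division by the total they were 0.032 for let-7, -0.011 for miR-30, 0.15 for miR-23/24/27, -0.16 for miR-99/100 and miR-125, -0.042 for miR-29, 0.13 for miR-15/16, -0.74 for the X-linked cluster, -0.86 for DLK1-DIO3 and -0.67 for endothelial probes. The shared shift of -0.30 is part of each. After quantile normalization they were 0 for let-7, 0.48 for miR-30 and 0.22 for miR-15/16. In run 1 alone they were 0.62 for let-7, 0.67 for miR-30, 0.90 for miR-23/24/27, 0.71 for miR-99/100 and miR-125, 0.87 for miR-29, -0.047 for the X-linked cluster, -0.27 for DLK1-DIO3, -0.0038 for endothelial, 0.41 for stromal and 0.0081 for blood cell probes. In run 2 alone they were 0.12 for miR-23/24/27, -0.34 for miR-99/100 and miR-125, -0.34 for miR-29, -0.0048 for miR-15/16, -0.81 for DLK1-DIO3, -0.68 for endothelial, -0.68 for stromal and -1.30 for blood cell probes. Leaving out one sample gave 0.19 to 0.53 for let-7, -0.11 to 0.30 for miR-99/100 and miR-125, -0.059 to 0.47 for miR-29, -0.54 to -0.14 for the X-linked cluster, -0.52 to -0.25 for endothelial, -0.31 to 0.31 for stromal, -0.87 to -0.42 for blood cell, 0.29 to 0.63 for miR-23/24/27, -0.15 to 0.21 for miR-378, -0.34 to 0.023 for miR-17 to miR-92 and -0.44 to 0.051 for gonadotropin-responsive probes. The highest value of these last was without day 14 replicate 4.

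Single miRNAs that changed sign, none of them called in the fit reported, were miR-181b/d-5p (-0.084) and miR-30b-5p (-0.049) after division by the total, miR-30b-5p (-0.020) and miR-23a-3p (-0.20) in run 2 alone, and miR-10b-5p (0.21), miR-199a/b-3p (0.44) and miR-150-5p (0.94, adjusted p = 0.0351 by limma) in run 1 alone. miR-23a-3p was also called in run 1 alone (0.84, adjusted p = 0.0361 by limma). With one sample left out, the ranges were -0.0094 to 0.50 for miR-181b/d-5p, -0.33 to 0.052 for miR-10b-5p, -0.46 to 0.21 for miR-199a/b-3p and -0.49 to 0.14 for miR-150-5p. The cause of these changes was not tested. Groups by shared seed were not run. With 2 samples of each day per run and an unknown raw depth, a difference in one run rests on 4 samples, and the low probes near the medians of probes without a bovine gene are the least certain.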
